A study of Mus musculus with 6 samples.

Results

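The genes described here are 8 transcription factors of interferon signalling, namely Irf1, Irf2, Irf3, Irf5, Irf7, Irf8 and Irf9 of the interferon regulatory factor (IRF) family and Stat2 of the STAT family. They were chosen by name, through the gene symbol of the RefSeq accession that the array gives for each probe. They make up 8 of 20832 named genes and 9 of 39429 probes on the array. Expression was measured in cultured primary mouse prostate cells, 48 hours after infection with an adenovirus, on 1-colour Agilent arrays. The Rb deleted group (p53-/- Rb∆f/∆f, 3 arrays) received an adenovirus carrying Cre recombinase, which cuts out the floxed part of Rb. The Rb intact group (p53-/- Rbf/f, 3 arrays) received an adenovirus carrying lacZ, a bacterial enzyme gene that leaves Rb whole. All 6 cultures lacked p53 and were infected with adenovirus, so no array shows uninfected or p53-proficient cells. The loss of Rb and the presence of Cre go together in every culture and cannot be told apart. The labels call the replicates independent experiments and do not say which animals they came from.

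IRFs share a DNA-binding domain that recognises repeats of the letters GAAA, the core of the interferon-stimulated response element (ISRE). Irf3 and Irf7 wait in the cytoplasm until kinases downstream of RNA and DNA sensors phosphorylate them, and then switch on type I interferon genes. Secreted interferon acts on its receptor and JAK kinases, which bring Stat2 and Irf9 together in the complex ISGF3, and ISGF3 in turn switches on genes with an ISRE, while STAT dimers bind a different element, GAS.

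Levels are given as log2 of a probe's signal over the 75th percentile of its array, so 0 is the signal of that percentile and a negative level lies below it. A level belongs to its own probe and is not compared between genes. A gene is said to have risen or fallen where limma's moderated test, with Benjamini-Hochberg adjustment over 13728 genes, gave an adjusted p under 0.05. Errors after ± are SDs for group levels (n = 3 each) and standard errors for differences, which are always Rb deleted minus Rb intact. An exact permutation test of 3 arrays against 3 cannot go below a two-sided p of 0.1.

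Rb1 itself, the targeted gene, had levels of -3.12, -3.11 and -3.07 in Rb deleted cultures, against -1.15, -1.13 and -1.16 in Rb intact cultures. The signal left in Rb deleted cultures was 25.8% of that in Rb intact cultures (limma, adjusted p = 8.14e-05). Whether the Rb1 probe lies within the part that Cre removes is not given in the files. Between 58.7% and 63.3% of the probes of an array were above background and no spot was saturated. Rb intact 1 to 3 and Rb deleted 1 shared 1 slide, and Rb deleted 2 and 3 lay on another. Rb intact 1 stood outside the range of the other 2 Rb intact arrays in 88.1% of the genes tested and in all 8 of the genes described here. Each of 3 like arrays would stand outside the other 2 in about 2 of 3 genes, a smaller share than that of Rb intact 1. The shares for the other arrays are not given. Values without Rb intact 1 are given below where a call turns on it. Of the defining markers of the prostate epithelium, Trp63, Itga6 and Krt14 (basal) and Krt8, Krt18 and Cd24a (luminal) were above background, whereas Krt5, Krt15 and Pbsn did not pass that filter. The mesenchymal markers were all measured.

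All 8 genes were above background on all 6 arrays. Irf5, Irf7 and Irf9 rose in Rb deleted cultures and none of the 8 fell, where 9.67% of all genes tested rose and 10.8% fell (20.4% in either direction). The other 5 genes did not pass the test. All 8 differences were positive, with a median of 0.24, and 52.6% of all genes had a positive difference, with a median of 0.01. The groups did not overlap for 4 of the 8 (Irf5, Irf7, Irf9 and Irf8), all with Rb deleted higher, a state found in 23.7% of all genes. With slide as a block, which sets Rb deleted 1 against the 3 Rb intact arrays, none of the 8 passed the test (limma, where 1.46% of all genes rose), and 2 had an unadjusted p under 0.05. The share of all genes at that unadjusted level with slide as a block is not given here. Without Rb intact 1, 5 of the 8 rose (Irf1, Irf2, Irf5, Irf7 and Irf9), where 19.1% of all genes rose. In bulk RNA, fewer cells of a type and less RNA per cell cannot be told apart.

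**Figure D1:**
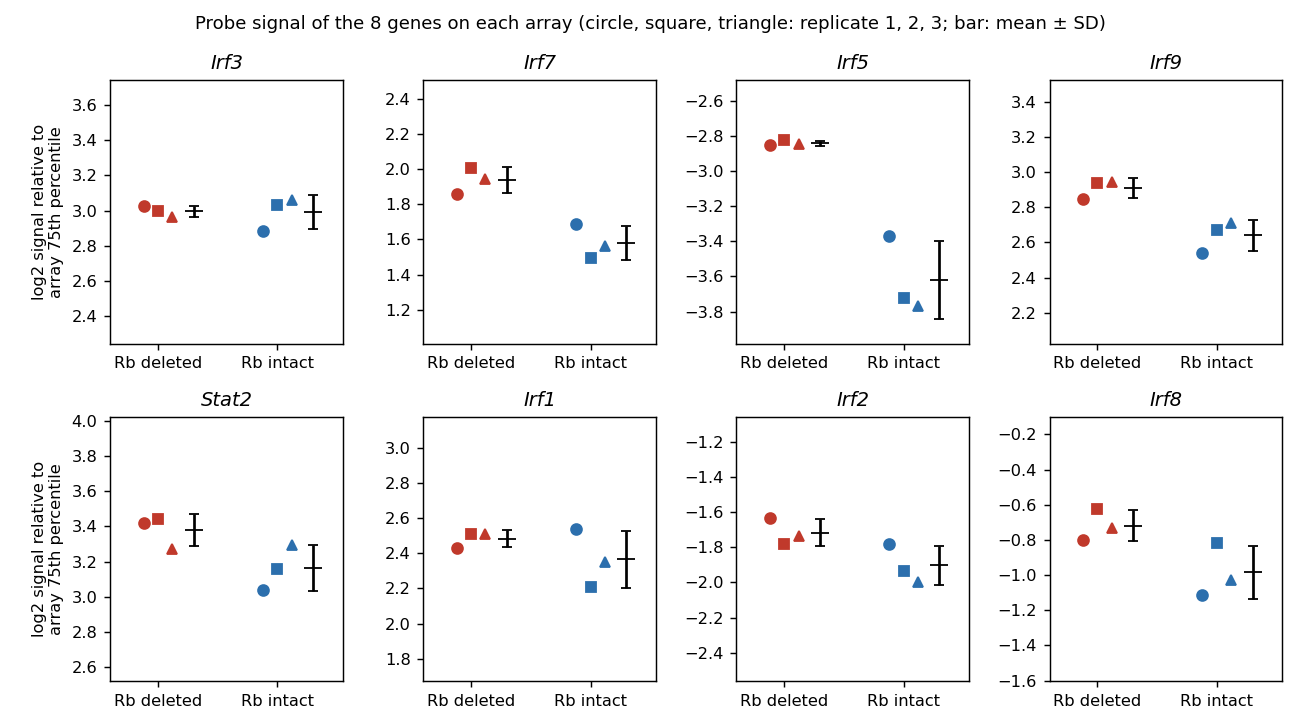
Level of each gene in every array (log2 of the signal over the array's 75th percentile), with 1 panel a gene, Rb deleted left of Rb intact, points for arrays and a bar for the mean. The 2 groups are separate for Irf7, Irf5, Irf9 and Irf8 and overlap for Irf3, Stat2, Irf1 and Irf2.

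The promoters of the 3 genes that rose are shown because none of them holds an ISRE or a GAS by the letters searched. The sequences are the 100 bases before the start of transcription in RefSeq's GRCm38.p6 annotation, read 5′ to 3′ on the gene's strand, at chr7:141266425-141266524 (minus strand) for Irf7, chr6:29526525-29526624 (plus strand) for Irf5 and chr14:55603885-55603984 (plus strand) for the first of the 2 Irf9 starts.
Irf7: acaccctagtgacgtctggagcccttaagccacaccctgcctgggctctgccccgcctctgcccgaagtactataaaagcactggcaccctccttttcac
Irf5: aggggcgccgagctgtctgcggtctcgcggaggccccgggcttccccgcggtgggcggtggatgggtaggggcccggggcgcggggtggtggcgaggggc
Irf9: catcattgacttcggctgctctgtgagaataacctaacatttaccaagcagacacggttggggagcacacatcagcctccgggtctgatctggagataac

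The 4 genes with a match are shown over 60 bases each, with the matching letters in capitals, from the same annotation and all on the plus strand. They lie at chr10:128270251-128270310 for Stat2, chr11:53769898-53769957 for Irf1, chr8:46739495-46739554 for Irf2 and chr8:120736170-120736229 for Irf8.
Stat2: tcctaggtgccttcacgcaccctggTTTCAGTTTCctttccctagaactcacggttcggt
Irf1: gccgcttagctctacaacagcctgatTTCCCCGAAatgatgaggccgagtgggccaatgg
Irf2: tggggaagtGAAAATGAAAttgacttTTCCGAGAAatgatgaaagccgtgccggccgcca
Irf8: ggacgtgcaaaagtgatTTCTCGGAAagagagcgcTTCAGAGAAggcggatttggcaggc

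The search covered both strands of windows from 250 bases before to 50 bases after a start, of which the 8 genes have 11. A pair of GAAA runs with any 2 bases between them stood for ISRE, TTCNNNGAA for GAS, GGGA and TTTCC with any 1 base between them for NF-kB, and TTTGGCGC, TTTGCCGC, TTTCGCGC and TTTCCCGC for E2F, the factor that Rb binds. An ISRE was found in 2 of the 11 windows, 222 bases before the Stat2 start and 241 before the Irf2 start, against 3.44% of all 32851 promoter windows. A GAS was found in 3 of the 11, at 90 bases before the Irf1 start, 224 before the Irf2 start, and 171 and 153 before the Irf8 start, against 8.30% of all windows. Neither the E2F letters (2.26% of all windows) nor the NF-kB letters (0.411%) were found in any of the 11. The matches do not overlap each other. A match is a run of letters, and its absence says only that these letters are not in the window.

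**Figure D2:**
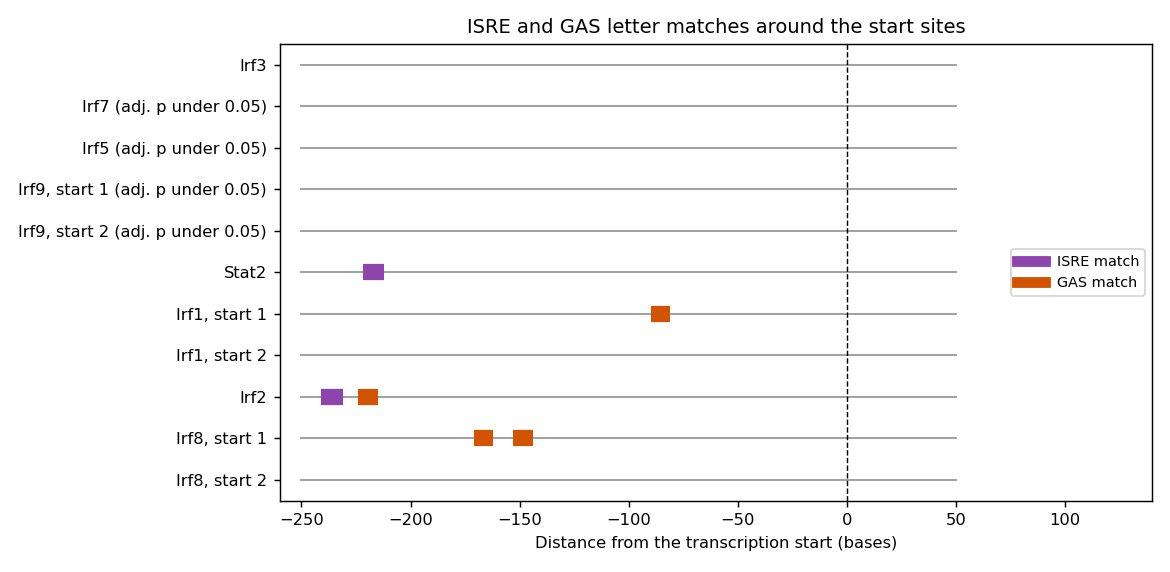
Position of the ISRE and GAS letter matches relative to the start of transcription (bases, dashed line at the start), with 1 line for each of the 11 windows. Stat2 and Irf2 have an ISRE, Irf1, Irf2 and Irf8 have a GAS, and the windows of Irf3, Irf7, Irf5 and Irf9 and the second windows of Irf1 and Irf8 have none.

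Irf3, the factor present in most cells before infection, had levels of 3.03, 3.00 and 2.97 in Rb deleted cultures, against 2.88, 3.03 and 3.06 in Rb intact cultures. The groups overlapped, with Rb intact 1 the lowest of the 6 arrays. The difference was 0.01 ± 0.07 (95% interval -0.15 to 0.16, limma adjusted p = 0.961, exact p = 1). It was the smallest difference of the 8.

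Irf7, which interferon itself induces and which amplifies type I interferon production, had levels of 1.86, 2.00 and 1.95 in Rb deleted cultures, against 1.69, 1.495 and 1.56 in Rb intact cultures. All 3 Rb deleted arrays lay above all 3 Rb intact arrays. Irf7 rose by 0.35 ± 0.07, a 1.28-fold difference (95% interval 0.18 to 0.53, limma adjusted p = 0.0200, exact p = 0.1). The call was lost without Rb deleted 2, Rb deleted 3, Rb intact 2 or Rb intact 3 (adjusted p up to 0.0898 in limma), and with slide as a block the difference was 0.28 (adjusted p = 0.228).

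Irf5, which acts downstream of Toll-like receptors and Myd88 and drives inflammatory cytokine genes, had levels of -2.85, -2.83 and -2.85 in Rb deleted cultures, against -3.37, -3.72 and -3.77 in Rb intact cultures. The Rb deleted arrays lay within 0.03 of each other and above every Rb intact array. Irf5 rose by 0.78 ± 0.11, a 1.71-fold difference and the largest of the 8 (95% interval 0.51 to 1.05, limma adjusted p = 0.00585, exact p = 0.1). Of the 1327 genes that rose, 126 had a difference at least as large as that of Irf5, a count that includes Irf5 itself. Its call held with each array left out in turn (differences 0.70 to 0.90, limma adjusted p 0.000336 to 0.0323). With slide as a block the difference was 0.77 and the adjusted p was 0.0822.

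Irf9, the DNA-binding part of ISGF3, had levels of 2.85, 2.94 and 2.95 in Rb deleted cultures, against 2.54, 2.67 and 2.71 in Rb intact cultures. The groups did not overlap. Irf9 rose by 0.27 ± 0.07, a 1.204-fold difference (95% interval 0.11 to 0.43, limma adjusted p = 0.0367, exact p = 0.1). The call was kept without Rb intact 1 (adjusted p = 0.0207) and lost without any other single array (adjusted p up to 0.140 in limma). With slide as a block the difference was 0.20 (adjusted p = 0.328).

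Stat2, the partner of Irf9 in ISGF3 that carries its transactivation domain, had levels of 3.42, 3.44 and 3.27 in Rb deleted cultures, against 3.04, 3.16 and 3.30 in Rb intact cultures. Rb deleted 3 lay below Rb intact 3, so the groups overlapped. The difference was 0.21 ± 0.09 (95% interval 0.004 to 0.42, limma adjusted p = 0.134, exact p = 0.2), and it did not pass with any 1 array left out.

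Irf1, an activator that interferon gamma induces, had levels of 2.43, 2.51 and 2.51 in Rb deleted cultures, against 2.53, 2.21 and 2.35 in Rb intact cultures. Rb intact 1 was the highest of the 6 arrays. The difference was 0.12 ± 0.09 (95% interval -0.10 to 0.34, limma adjusted p = 0.396, exact p = 0.4). Without Rb intact 1 it was 0.20 and passed the test (adjusted p = 0.0476). A second Irf1 probe was not above background on any array.

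Irf2, which binds the same element as Irf1 and often opposes it, had levels of -1.63, -1.78 and -1.73 in Rb deleted cultures, against -1.78, -1.93 and -2.00 in Rb intact cultures. Rb intact 1 lay just above Rb deleted 2, and no other pair crossed. The difference was 0.19 ± 0.08 (95% interval -0.002 to 0.37, limma adjusted p = 0.144, exact p = 0.2). Without Rb intact 1 it was 0.25 and passed the test (adjusted p = 0.0259).

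Irf8, best known for its role in myeloid and B cell development, had levels of -0.80, -0.62 and -0.73 in Rb deleted cultures, against -1.11, -0.82 and -1.03 in Rb intact cultures. The groups did not overlap, with a gap of 0.02 between the nearest arrays. The difference was 0.27 ± 0.09 (95% interval 0.04 to 0.49, limma adjusted p = 0.0921, exact p = 0.1). Without Rb intact 2 it was 0.35 and passed the test (adjusted p = 0.0480).

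**Figure D3:**
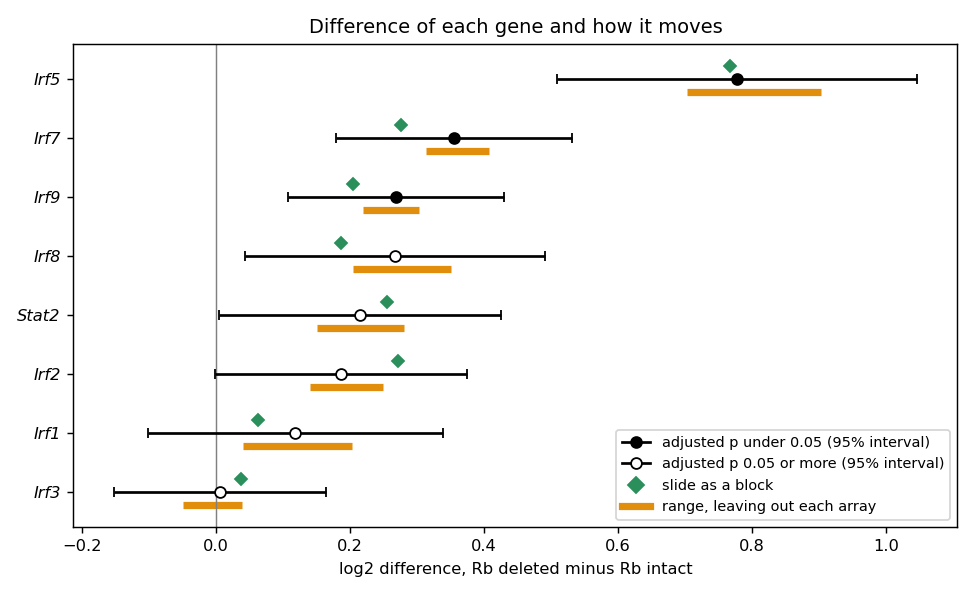
Difference of each gene in log2 units, Rb deleted minus Rb intact, with its 95% interval, the value with slide as a block and the range with 1 array left out. Irf5 has the largest difference (0.78) and Irf3 the smallest (0.01).

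The SD between arrays was larger in Rb intact than in Rb deleted cultures for all 8 genes, as it was for 74.2% of all genes. Rb intact 1 was above both other Rb intact arrays for Irf7, Irf5, Irf1 and Irf2 and below both for Irf3, Irf9, Stat2 and Irf8. Likeness between genes was measured as the root mean square difference of the centred levels over the 6 arrays. Among the 8, Irf9 was most like Irf8 (0.0819) and Stat2 (0.0842), and Irf3 and Irf5 were least alike (0.427). Among all genes tested, Mogs, Tap1 and Pot1a (0.0217 to 0.0239) were nearest to Irf7. Ralgps2, Hdac9 and Cdkn1a (0.0323 to 0.0532) were nearest to Irf5. Espl1, 4930430F08Rik and Rrp1 (0.0127 to 0.0188) were nearest to Irf9.

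No tested gene beside the 3 that rose passed the test, and the nearest genes on either side of Irf5 were not tested. Tnpo3, which overlaps Irf5 in the annotation, differed by 0.05 ± 0.08 (limma adjusted p = 0.673). Rnf31, a neighbour of Irf9 that encodes a subunit of the linear ubiquitin ligase, differed by 0.20 ± 0.06 (limma adjusted p = 0.0531) and passed without Rb intact 1 (adjusted p = 0.0123). Rec8, on the other side of Irf9, differed by -0.01 ± 0.08, and Phrf1, beside Irf7, by -0.02 ± 0.05. Cdhr5, on the other side of Irf7, differed by -0.33 ± 0.42 (limma adjusted p = 0.608).

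Of the other IRF and STAT genes, 6 of 8 were tested and none passed in limma (median difference 0.15). At an unadjusted p under 0.05 there were 0 of the 6, against 4903 of all 13728 genes. Stat6 differed by -0.08 ± 0.05 (adjusted p = 0.319) and Stat5a by 0.18. Stat3, chosen for mention after its values were seen, differed by 0.00 ± 0.06 (limma adjusted p = 0.972). Irf4 and Stat4 were above background on no array. Without Rb intact 1, Stat5a (0.34, adjusted p = 0.00477) and Stat5b (0.30, adjusted p = 0.00388) passed.

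Of 8 tested cofactors that bind DNA with IRFs or modify them, 3 rose and 1 fell (median difference 0.11), where 9.67% of all genes rose and 10.8% fell. Batf3, a leucine zipper partner of Irf8 and Irf4, had levels of -1.41, -1.42 and -1.25 in Rb deleted cultures, against -2.50, -2.22 and -2.13 in Rb intact cultures, and rose by 0.93 ± 0.11 (limma adjusted p = 0.00299). Batf2 rose by 0.57 ± 0.09 (adjusted p = 0.0101) and Irf2bp2, a corepressor that binds Irf2, by 0.31 ± 0.07 (adjusted p = 0.0294). Batf fell by 0.51 on the log2 scale (limma adjusted p = 0.0160). Batf and Irf2bp2 lost their calls without any Rb deleted array or without Rb intact 3 (adjusted p up to 0.0675 for Batf and 0.116 for Irf2bp2). Spi1, a myeloid partner of Irf8, was above background on no array. The 4 calls were lost with slide as a block, with adjusted p of 0.0556 for Batf3, 0.111 for Batf, 0.138 for Batf2 and 0.263 for Irf2bp2 in limma.

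Upstream of the factors, 2 of 7 tested interferon ligand genes rose and none fell (median difference 0.22), where 9.67% of all genes rose. Ifnb1, the type I interferon that Irf3 and Irf7 switch on, had levels of -4.98, -4.62 and -4.79 in Rb deleted cultures, against -5.88, -6.07 and -5.65 in Rb intact cultures, of which 2 of 3 arrays were above background. Ifnb1 passed the filter on dim probes only through the Rb deleted group, so its difference of 1.07 ± 0.14 (limma adjusted p = 0.00388) rests in part on an array without a measured level. With slide as a block the difference was 0.88 (adjusted p = 0.0625). Ifna11, which did not pass the test, also entered only through the Rb deleted group. Among the 5 ligand genes above background on all 6 arrays, 1 rose (Ifnl3), where 9.8% of all such genes rose. The median difference of these 5 was 0.14. Ifnl3 rose by 0.78 ± 0.21 (limma adjusted p = 0.0458) and kept its call only without Rb deleted 1 (adjusted p up to 0.144 otherwise), and with slide as a block its adjusted p was 0.322. Ifna5 differed by 0.22 ± 0.06 (limma adjusted p = 0.0567) and Ifna2 by 0.10 ± 0.05, and since interferon alpha genes are near-identical copies their probes may share signal. Without Rb intact 1, Ifna5 (adjusted p = 0.0142) and Ifna2 (adjusted p = 0.0402) passed.

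Of 8 tested interferon receptor and JAK genes, 1 rose and 1 fell (median difference 0.03), shares near the 9.67% and 10.8% of all genes. Jak2, a kinase of the interferon gamma receptor, rose by 0.38 ± 0.06 (limma adjusted p = 0.00859), a call lost without Rb deleted 2 (adjusted p = 0.0502). Ifngr1, the chain of that receptor that binds the ligand, fell by 0.36 on the log2 scale (limma adjusted p = 0.0170), a call lost without any one Rb deleted array (adjusted p up to 0.0787). Ifnar2, a chain of the type I receptor, differed by 0.12 ± 0.05 and Tyk2, a kinase of the type I receptor, by 0.13, neither past the test. Both calls were lost with slide as a block (limma adjusted p = 0.0826 for Jak2 and 0.174 for Ifngr1).

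Of the 21 sensors, adaptors and kinases that activate IRFs, 3 rose and 2 fell (median difference 0.01), or 14.3% and 9.52%, where 9.67% and 10.8% of all genes did. Ifih1, the sensor of long double-stranded RNA, rose by 0.52 ± 0.06 (limma adjusted p = 0.00227), Cgas, the DNA sensor, by 0.48 ± 0.09 (adjusted p = 0.0172), and Dhx58 by 0.34 ± 0.08 (adjusted p = 0.0353). Ikbke, a kinase that phosphorylates Irf3 and Irf7, had levels of -0.09, 0.02 and 0.04 in Rb deleted cultures, against 0.51, 0.60 and 0.60 in Rb intact cultures, and fell by 0.58 on the log2 scale (limma adjusted p = 0.00204). Tbkbp1, an adaptor of the related kinase Tbk1, fell by 0.39 (limma adjusted p = 0.0283). Cgas and Tbkbp1 lost their calls without any one Rb deleted array, Tbkbp1 also without Rb intact 3 (adjusted p up to 0.0769 for Cgas and 0.0977 for Tbkbp1). Dhx58, chosen for mention after its values were seen, kept its call only without Rb intact 1 (adjusted p up to 0.115 otherwise). Ikbke and Ifih1 kept theirs with slide as a block (adjusted p = 0.0191 and 0.0463), and the other 3 lost theirs (adjusted p = 0.162 for Cgas, 0.184 for Tbkbp1 and 0.159 for Dhx58).

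Of 11 genes that restrain JAK-STAT signalling, 1 rose and none fell (median difference 0.06), or 9.09% against 9.67% of all genes. Socs3, which blocks JAK kinases and receptors, rose by 0.45 ± 0.06 (limma adjusted p = 0.00381), a call lost with slide as a block (adjusted p = 0.0594). Usp18, which removes ISG15 from proteins and restrains the type I receptor, differed by 0.33 ± 0.10 (limma adjusted p = 0.0608) and passed without Rb intact 1 (adjusted p = 0.0106).

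Downstream, 14 of 33 tested genes of the ISRE type rose and none fell (median difference 0.25, where 9.67% of all genes rose). Oas3, an antiviral oligoadenylate synthetase, had levels of -1.38, -1.24 and -1.19 in Rb deleted cultures, against -2.67, -2.41 and -2.20 in Rb intact cultures, and rose by 1.16 ± 0.13 (limma adjusted p = 0.00222). Herc6, the ISG15 ligase of the mouse, rose by 0.53 ± 0.06 (adjusted p = 0.00338), Zbp1, a sensor of Z-form nucleic acid, by 0.64 ± 0.08 (adjusted p = 0.00428) and Xaf1 by 0.44 ± 0.06 (adjusted p = 0.00389). The count of genes that rose moved with the setting, as did the share of all genes that rose. It was 6 without Rb deleted 2 (3.33% of all genes), 8 without Rb deleted 3 (3.48%), 9 without Rb intact 2 (5.47%), 22 without Rb intact 1 (19.1%) and 1, Oas3, with slide as a block (1.46%).

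Of 19 tested genes linked to Irf1 and antigen presentation, 6 rose and 1 fell (median difference 0.12), where 9.67% of all genes rose and 10.8% fell. Ccl5, a chemokine, had levels of 3.80, 3.87 and 3.80 in Rb deleted cultures, against 2.05, 2.01 and 2.14 in Rb intact cultures, and rose by 1.75 ± 0.06 (limma adjusted p = 0.000145). Cxcl10, a chemokine, rose by 1.05 ± 0.08 (adjusted p = 0.000552), Il15, a cytokine, by 0.67 ± 0.06 (adjusted p = 0.00112) and Gbp3, a guanylate-binding protein, by 0.57 ± 0.07 (adjusted p = 0.00301). These 4 rose with each array left out and with slide as a block. Casp1, the inflammatory caspase and chosen for mention after its values were seen, fell by 0.65 on the log2 scale (limma adjusted p = 0.00321), a call lost with slide as a block (adjusted p = 0.0534). Without Rb intact 1, 12 genes of the list passed, 9 higher and 3 lower, where 19.1% of all genes rose. The share of all genes that fell in that setting is not given here.

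**Figure D4:**
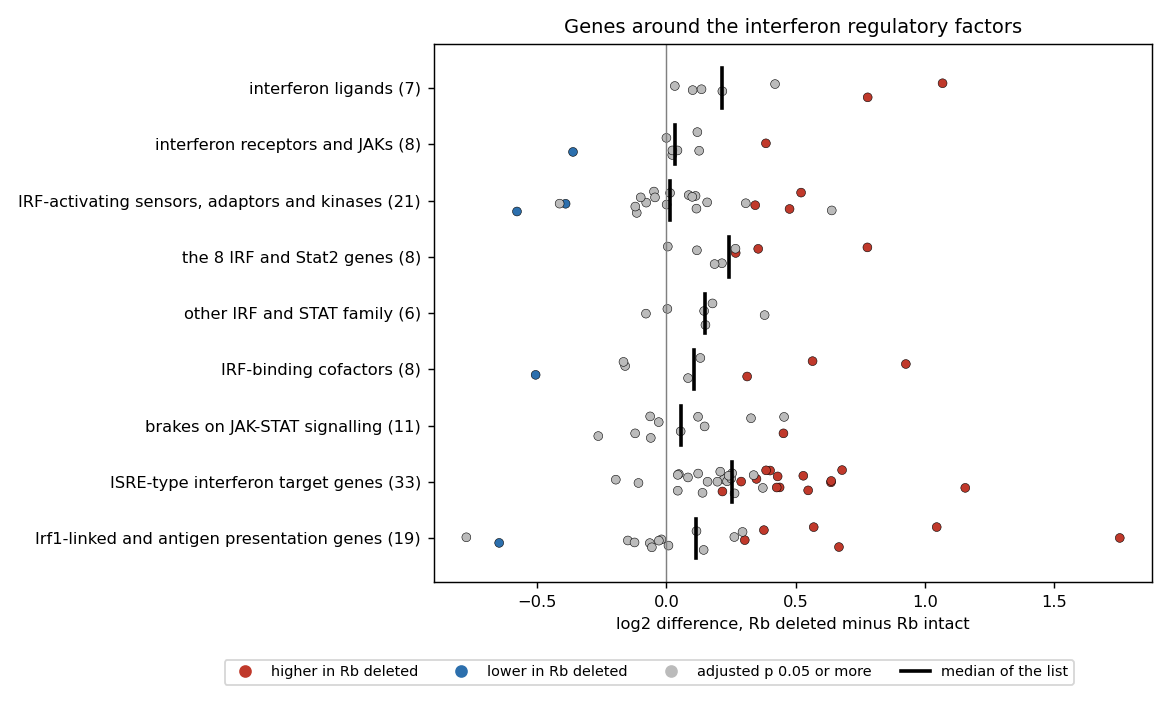
Difference in log2 units, Rb deleted minus Rb intact, for each tested gene of the 9 groups (number tested in brackets), with a bar at each group's median. The groups run from interferon ligands at the top to target genes at the bottom, with Ccl5 (1.75) in the lowest row and Oas3 (1.16) in the row above it. Ifnb1 and Ifna11, in the top row, were each not above background on 1 Rb intact array.

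Markers of other cell types were set beside these values. A sum of marker signals follows its brightest probe, which made up 82.9% to 89.8% of the leukocyte sum (Siglech), 92.6% to 94.8% of the basal sum (Itga6) and 94.8% to 96.5% of the luminal sum (Krt18). Leukocyte markers, of which 7 of 17 on the array were tested, summed to 35.0 to 39.8 in Rb deleted cultures and 38.3 to 47.8 in Rb intact cultures (signal over the 75th percentile). Ptprc, Lyz2, Laptm5 and Tyrobp were above background on no array. Of the 7 tested, Cd14 (0.36) and Mpeg1 (0.69) rose (limma adjusted p = 0.0132 and 0.0147), where 9.67% of all genes rose. Both lost their calls without Rb deleted 2 or 3 (adjusted p up to 0.0636 and 0.0663). They also lost them with slide as a block (limma adjusted p = 0.147 for Cd14 and 0.182 for Mpeg1). Siglech differed by -0.26 (limma adjusted p = 0.0802) and passed without Rb intact 1 (adjusted p = 0.0374). Basal markers summed to 20.8 to 21.4 in Rb deleted cultures and 28.7 to 34.4 in Rb intact cultures, and Itga6 (-0.58, limma adjusted p = 0.00500) and Trp63 (-0.26, adjusted p = 0.0476) fell, the call of Trp63 holding only without Rb intact 1 (adjusted p up to 0.156 otherwise), and with slide as a block neither passed (adjusted p = 0.0753 for Itga6 and 0.409 for Trp63). Luminal markers summed to 9.59 to 11.1 in Rb deleted cultures and 11.1 to 12.3 in Rb intact cultures, and none passed. Of the 4 tested, 1 had an unadjusted p under 0.05 in limma, against 4903 of all 13728 genes. Without Rb intact 1, Krt8 passed (limma adjusted p = 0.0308). Mesenchymal markers summed to 139 to 154 in Rb deleted cultures and 169 to 172 in Rb intact cultures, and Acta2, smooth muscle actin, fell (-1.35, limma adjusted p = 0.00217). The collagen gene Col3a1 also fell without Rb intact 1 (-0.38, limma adjusted p = 0.00541). Endothelial markers summed to 3.29 to 3.996 in Rb deleted cultures and 3.79 to 3.93 in Rb intact cultures. The part of these shifts in the values of the 8 genes was not tested.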

How the data were processed

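Total RNA of 6 cultures was labelled with Cy3, per the labels' protocols. The authors deposited 1 scanner file per array, with processed signal intensity after background subtraction, and a table of log2 values, which matched the scanner values within 0.01 after a constant for 22164 probes (column medians -0.52 to -0.49). The scale's constant and any further filter are not given in the sources used here. Feature Extraction is version 11.0.1.1 per the file headers and 10.7.3.1 per the submitters' processing notes. Flag columns give whether a spot is above background, per the file headers.

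Processed intensities were scaled to each array's 75th percentile and put on the log2 scale, after control and outlier spots were left out. Probes above background on all arrays of a group were kept (23045), with the brightest probe of each gene (13728 genes). Names came from RefSeq accessions for 27427 probes, and 12002 probes had none. Differences were tested with limma 3.58.1 in R 4.3.3 on 3 against 3 arrays, and the fit was tested on simulated data. P-values measure the spread between these cultures. The number of arrays limits the precision. The named genes are the 8 factors, Rb1, up to 4 genes of each list with the smallest p, the brightest marker, the genes most alike and the neighbours in the annotation; Stat3, Dhx58 and Casp1 were added after their values were seen. Alternatives changed the scaling, background model, probe filter, probe choice, variance model, array weights, slide or replicate block and the arrays included. The members and lists were chosen with earlier results of these data known. Values of some genes of the lists are not reported here.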

Additional observations from a re-analysis of the deposited data

How the results depend on the processing

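The 3 genes of the 8 that rose, of 2806 genes that passed among all tested, depended on the setting. Irf5 passed in 17 of 19 alternatives, Irf7 in 11, Irf9 in 9, Irf1, Irf2 and Irf8 in 2 each, and Irf3 and Stat2 in 0. Differences of all but Irf3 were positive in 19 of 19 alternatives, and Irf3's in 16. Several alternatives, such as another probe filter, variance model or replicate block, cannot move the difference of a gene with 1 passing probe. The first slide alone gave the same differences as slide as a block. The 19 are therefore not separate checks of the sign. Without a filter on dim probes 1491 genes passed, 1 of them among the 8 (Irf5, where 2.93% of all genes rose). With array weights 6144 and 6 passed (23.4%). With slide as a block 672 and 0 passed (limma, 1.46%), with 2 of the 8 at an unadjusted p under 0.05. On the first slide only 151 and 0 passed (limma, 0.197%), with 1 at an unadjusted p under 0.05. The shares of all genes at an unadjusted p under 0.05 in these 2 slide settings are not given here. At an unadjusted p under 0.05, an alternative chosen after seeing the data, 4903 and 5 passed (18.3%). With the replicate block 1663 and 1 passed (5.1%). Deviations of same-numbered arrays from their group means had correlations of -0.03, -0.05 and 0.02. These values show no shared deviation, but they cannot tell whether a number marks a shared experiment, which is not given. Leaving out 1 array gave 1255 to 5112 genes and 1 to 5 of the 8, the most without Rb intact 1 (19.1%) and the fewest genes without Rb deleted 2 (3.33%). The causes were not tested. Slide and group are only partly separable, since the second slide holds Rb deleted cultures alone. Ifnb1 and Ifna11 were each above background on 2 of 3 Rb intact arrays.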
